A study of Mus musculus with 9 samples.

Results

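In 9 RNA sequencing libraries of the mouse mammary tumour line D2.0R, the libraries with title numbers 2, 5 and 8 stood apart from the other 6. They had higher levels of genes of cell division, of many collagens and some other matrix genes, and of interferon-stimulated genes and cholesterol synthesis genes. They had lower levels of the genes that the transcription factor ATF4 turns on when amino acids are short, of tRNA synthetases and of genes for making ribosomes. This set of 3 libraries out of 9 was chosen on the measured values, because it carries the largest share of the variation in the table. Its differences are therefore given as a description, library by library, with no test.

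D2.0R (also written D2.OR) is an established line from a mouse mammary adenocarcinoma, known in the field for lesions that stay dormant in mice. Per the labels' protocols, the cells took up CellTrace Far Red, whose signal is shared out between daughter cells, and were kept for 1 week in DMEM with 2% fetal bovine serum, against 10% in the medium in which the line is maintained. A flow cytometer then separated cells that kept the dye from cells that had lost it, and polyadenylated RNA was sequenced. The labels give all libraries the same line, dye and culture protocol, and no genotype or drug distinguishes them.

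The labels tie no library to a kind of sample. Every sample carries the same description, which names 3 kinds with the numbers 1 to 3. The kinds are dye-positive, bulk and dye-negative, so not every library need be a fraction that kept or lost the dye. Only the number at the end of the title, 1 to 9, tells samples apart. The 9 libraries are therefore named by title number and belong to 0 assigned groups. The titles 1 to 3, 4 to 6 and 7 to 9 are called blocks 1, 2 and 3 here, which is an arithmetic label and not a recorded batch or culture. Whether libraries came from separate flasks, and on which day each was handled, is not stated in the labels, and the kind of sample cannot be told apart from handling. Each block holds 1 library of the set, so every gene has 3 within-block differences, each the log2 level in the set library minus the mean log2 level of the block's other libraries.

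A cell that divides must copy its genome in S phase and part the copies in mitosis, and the genes for these steps are switched on in order by E2F factors, B-MYB and FOXM1. A cell short of amino acids phosphorylates the translation factor eIF2, which slows protein synthesis but lets ATF4 be made. ATF4 then raises amino acid transporters, enzymes of amino acid synthesis, tRNA synthetases and regulators such as Ddit3 and Trib3. Ribosome production is driven by MYC and by nutrient signals, and it takes much of the biosynthetic capacity of a growing cell.

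The libraries held 18732737 to 41243036 estimated counts, and those of the set 34165502, 27880290 and 35222378. Levels are given as CPM, read counts brought to a common library size, after TMM scaling, which corrects for differences in RNA composition. A count of 3 was worth 0.0754 to 0.160 CPM, so levels below this range are not told from absence. Of 55487 genes, 12328 had a mean of at least 1 CPM and were used. The counts of mitochondrially encoded genes made up 1.37%, 1.56% and 1.296% of libraries 2, 5 and 8 and 1.21 to 1.93% of the others. In bulk RNA, fewer cells of a type and less RNA per cell cannot be told apart.

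The set accounted for 51.5% of the summed squared deviation of log2 levels over the 12328 genes, the 3 blocks for 28.4%, the difference of libraries 3, 6 and 9 from 1, 4 and 7 for 8.66%, and the rest for 11.4%. Across genes, which are not independent replicates, the within-block differences of blocks 1 and 2 had a Pearson correlation of 0.883, those of blocks 2 and 3 of 0.880 and those of blocks 1 and 3 of 0.780. The libraries of different blocks are separate, but they share the choice of the set. Of the 12328 genes, 76.3% had a difference of the same sign in all 3 blocks. The median difference over all genes was 0.01 and the median absolute difference 0.26.

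**Figure D1:**
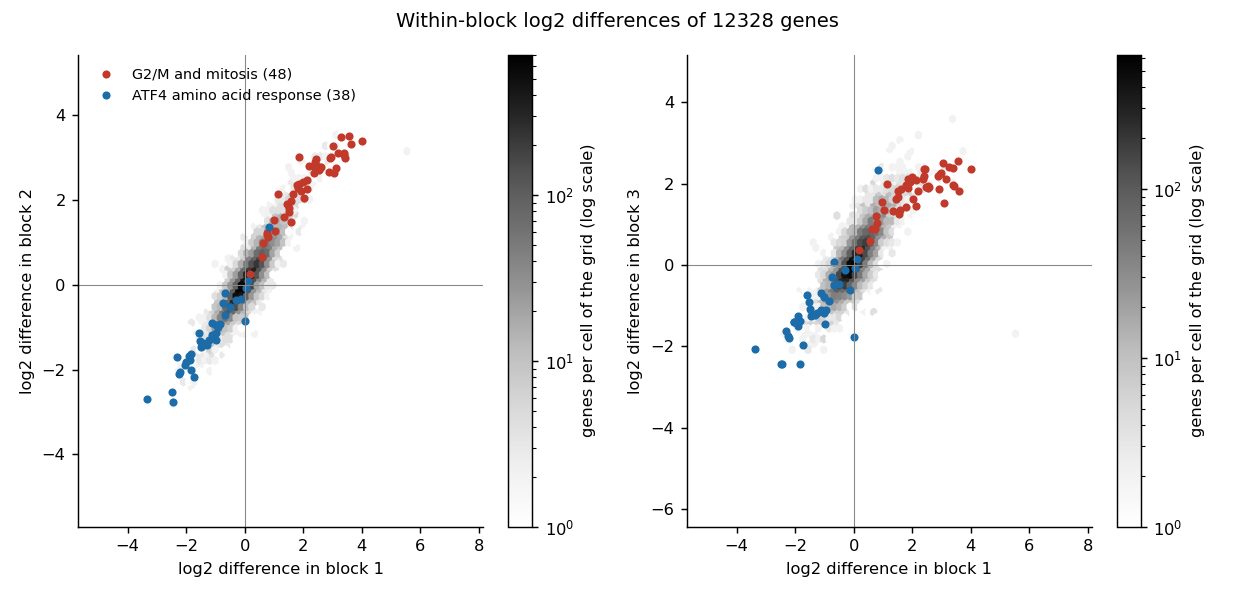
Within-block log2 differences (set library minus the mean of its block's other libraries) of 12328 genes in block 1 (horizontal) against block 2 (left) or block 3 (right), with grey shading for the number of genes. The 48 G2/M and mitosis genes (red) have a mean difference over the blocks above 0, and 36 of the 38 ATF4 genes (blue) have one below 0.

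Genes were counted as lying apart when libraries 2, 5 and 8 were all above, or all below, the other 6. There were 2625 genes apart on the high side, which is 21.3% of the genes, and 2259 on the low side, which is 18.3%. Apart and with a mean within-block difference of at least 1, that is 2-fold, were 582 genes on the high side (4.72%) and 208 on the low side (1.69%). The set was chosen on these same levels, so the shares are the background for the gene lists and not a finding. Every count of list members lying apart is to be read beside 21.3% on the high side and 18.3% on the low side. Leaving out a library makes the rule easier to meet, so counts with a library left out cannot be set against these shares. The genes 2-fold higher were mostly of low level, with a median of their mean levels of 6.44 CPM against 31.7 CPM for all genes and 30.3 CPM for the genes 2-fold lower. Median transcript length was 3462 bases for the 2-fold higher genes, 2994.5 for the lower and 3352 for all genes. Just inside the fold limit lay Gbp9 at 1.00 and Klf15 at -1.00, and just outside it lay Mecom at 0.999 and Larp1b at -0.999. Of the 837 measured genes on any of the 43 lists used below, 105 were 2-fold higher and 51 were 2-fold lower, so most genes past the limit are on no list.

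Genes of mitosis formed the list with the highest median difference. All 48 measured members of the G2/M and mitosis list had positive mean differences, 39 lay apart on the high side and 36 of these were 2-fold higher, beside 4.72% of all genes. The median difference was 2.25, or 4.76-fold, with 2.13, 2.54 and 1.91 in blocks 1, 2 and 3. None of the 48 lay apart on the low side. The 9 members that did not lie apart were Lin9, Ccnf, Cdc20, Cdc25c, Aurka, Bub1b, Nek2, Racgap1 and Ncapg. Every one of the 48 was highest in library 8, and the libraries outside the set also differed, with 45 of the 48 having their highest level among those 6 in library 7.

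Mki67 (chr7:135689784-135716361, GRCm38, minus strand) encodes Ki-67, a protein of dividing cells. It stood at 63.4, 107 and 153 CPM in libraries 2, 5 and 8, and at 4.97 (lowest), 9.44 (median) and 28.6 CPM (highest) in the other 6. The groups did not overlap, and the within-block differences were 3.58, 3.49 and 2.56. Top2a, the topoisomerase that untangles replicated DNA, stood at 66.4, 97.1 and 135 CPM in the set and at 9.99, 15.8 and 38.2 CPM (lowest, median, highest) in the others. Library 2, the lowest of the set, was still above library 7, the highest of the rest.

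The mitotic cyclins followed the same order. Ccnb2, cyclin B2, stood at 7.28, 14.2 and 26.5 CPM in libraries 2, 5 and 8 and at 0.480, 1.75 and 6.46 CPM (lowest, median, highest) in the others, so library 7 came close to library 2. Ccnb1, cyclin B1, was closer still, with 8.88, 14.6 and 22.2 CPM against 1.98, 3.54 and 8.45 CPM. Ccna2, cyclin A2, had a mean difference of 3.05, but it overlaps Exosc9 on the opposite strand and the use of strand is not stated, so part of its counts could be that gene's. Among the 15 genes with the highest mean differences, the kinetochore genes Cenpf and Nuf2 had differences of 3.26 and 2.91. The spindle genes Aspm, Ckap2l, Kif11 and Hmmr lay between 2.80 and 2.97. Foxm1, the transcription factor that drives mitotic genes, is not under the naming rule and was chosen after its values were seen, at 20.4, 36.2 and 50.9 CPM in the set and 4.54 to 13.7 CPM in the rest.

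For 38 of the 48 mitotic genes, RefSeq promoter windows (GRCm38.p6) were at hand, 40 windows in all. In the 250 bases before the gene start, 13 of the 40 windows (32.5%) held TTTGAA or its reverse complement, the core of the cell cycle homology region that DREAM and B-MYB-FOXM1 complexes bind, against 16.0% of all 32851 windows and 10.5% of the 11901 windows of measured genes. The CCAAT box, searched as CCAAT on both strands, was in 32 of the 40 (80.0%), against 33.8% and 35.7%. The stretches of Mki67 (chr7:135716425-135716524, minus strand) and Top2a (chr11:99024190-99024289, minus strand) are shown because these genes carry the pattern, with TTTGAA or its reverse complement in capitals and outside exons annotated by GENCODE. A match is a description of letters and not a bound site. Here and for the lists below, the shares describe the lists' members and do not depend on the differences between libraries.
Mki67: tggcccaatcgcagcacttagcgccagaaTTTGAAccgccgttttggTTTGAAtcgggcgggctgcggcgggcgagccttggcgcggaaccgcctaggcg
Top2a: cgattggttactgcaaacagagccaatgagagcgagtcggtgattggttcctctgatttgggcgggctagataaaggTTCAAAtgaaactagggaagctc

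Genes of DNA replication were less uniform. Of the 28 members of the list of the replication fork and nucleotide supply, 17 lay apart on the high side and 1, Ung, on the low side, with a median difference of 0.75. Of the 20 genes of origin licensing and the replicative helicase, 10 lay apart on the high side and Cdt1 and Orc2 on the low side, with a median of 0.90. With a minimum mean of 5 CPM, 6 of the licensing genes lay apart on the high side. Of 17 replication-dependent histone genes, 10 had means under 1 CPM in this polyadenylated RNA. None of the other 7 lay apart, and 6 of them had negative mean differences, with a median of -0.21. Rrm2, the small subunit of ribonucleotide reductase, stood at 22.3, 46.5 and 72.6 CPM in libraries 2, 5 and 8 and at 2.63, 6.15 and 19.5 CPM (lowest, median, highest) in the others. Mcm5, a helicase subunit, stood at 24.9, 39.3 and 58.8 CPM and at 4.15, 7.07 and 19.5 CPM. In both genes the set lay above every other library, if narrowly above library 7. Mcm2, another subunit of the same helicase, differed in the other direction, with 57.7, 79.6 and 101 CPM in the set and 86.4, 108 and 161 CPM (lowest, median, highest) in the others, and its groups overlapped. Cdt1, which loads the helicase onto DNA, was chosen after its values were seen and stood at 18.8, 28.1 and 35.2 CPM against 35.4 to 69.5 CPM. The repressors of late S phase E2f7 and E2f8 had mean differences of 2.97 and 2.34 and were the 2 widest of the G1 cyclin and E2F list, of whose 14 members 9 lay apart on the high side and none on the low side.

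Of 27 measured genes of cell cycle arrest, 10 lay apart on the high side, 5 on the low side and 12 on neither. The count on the low side is near the share of all genes, 18.3%, and that on the high side is above its share of 21.3%. The median difference was 0.38, and 18 members had positive differences. The member with the widest difference was Cdkn1a, a p53 target whose product p21 blocks cyclin-dependent kinases. It stood at 3.04, 3.80 and 5.17 CPM in libraries 2, 5 and 8 and at 9.39, 13.8 and 22.04 CPM (lowest, median, highest) in the others. No set library reached any of the rest, and the differences were -1.81, -1.97 and -1.78. Cdkn1b, the related inhibitor p27, differed by 0.11 on average, and its groups overlapped. Gadd45b, a stress and arrest gene, differed opposite to Cdkn1a, at 30.3, 27.7 and 23.2 CPM against 5.18, 10.2 and 14.5 CPM. Of 21 measured p53 targets, 9 lay apart on the low side (Mdm2, Cdkn1a, Bax, Sesn2, Zmat3, Trp53inp1, Aen, Plk2 and Gdf15) and 4 on the high side (Ccng1, Fas, Sesn1 and Btg2), with a median of -0.15. Sesn2 is also on the ATF4 list below. The 4 are near the share of all genes on the high side, 21.3%, and the 9 are above that on the low side, 18.3%. Without library 8, where the rule is easier to meet, there were 7 on the high side.

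**Figure D2:**
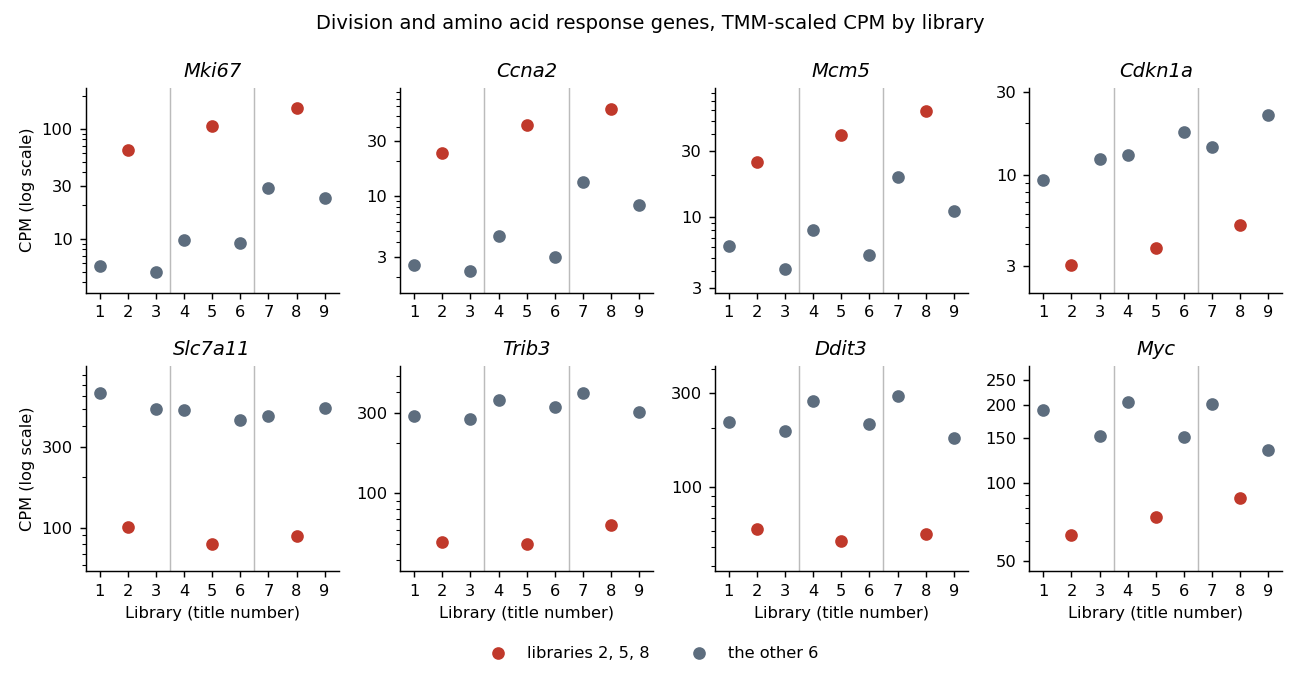
TMM-scaled CPM (log axis) by title number for 4 genes of the cell cycle (upper row) and 4 genes of amino acid stress and growth (lower row), with red points for libraries 2, 5 and 8 and grey lines between blocks. Mki67, Ccna2 and Mcm5 are higher in the red libraries and Cdkn1a, Slc7a11, Trib3, Ddit3 and Myc lower, with no overlap in these 8 genes.

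The ATF4 list had the lowest median difference of the lists with at least 5 measured genes. Of its 38 members, 32 lay apart on the low side and 25 of these were 2-fold lower, beside 1.69% of all genes, and none lay apart on the high side. The median difference was -1.24, with -1.27, -1.304 and -1.18 in the 3 blocks. Each member's log2 level was set against that gene's median library, and the median of these values over the members, the list score, was -1.16, -1.17 and -1.05 in libraries 2, 5 and 8 and between -0.01 and 0.27 in the others. This score, unlike that of the mitotic genes, differed little between blocks.

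Among the amino acid transporters, Slc7a11 (chr3:49892526-50443614, minus strand), the cystine importer, stood at 101, 79.7 and 88.8 CPM in libraries 2, 5 and 8. In the other 6 its lowest, median and highest levels were 429, 499.9 and 624 CPM. The set lay far below all of them, with differences of -2.47, -2.53 and -2.44, that is 5.58-fold lower. Slc7a5 and Slc3a2, the 2 chains of a large neutral amino acid exchanger, were chosen after their values were seen and had mean differences of -1.77 and -1.24.

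Among the enzymes, Cth, which makes cysteine from cystathionine, had the lowest difference of the list. It stood at 4.81, 7.82 and 13.6 CPM in libraries 2, 5 and 8 and at 42.3, 53.7 and 66.1 CPM (lowest, median, highest) in the others. The groups were far apart, though library 8 was closer than library 2. Cbs, the enzyme of the step before Cth, had the highest difference of the list, at 1.504. Its levels of 9.88, 7.19 and 3.44 CPM in the set overlapped those of 0.320 to 9.15 CPM in the others. Asns, asparagine synthetase, stood at 80.2, 96.6 and 123 CPM in the set and at 275, 296 and 349 CPM (lowest, median, highest) in the others, with no overlap. The serine synthesis genes Phgdh and Psat1, chosen after their values were seen, had mean differences of -1.25 and -1.15.

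Among the regulators, Trib3 (chr2:152337422-152344032, minus strand), a pseudokinase that restrains ATF4, stood at 51.2, 49.7 and 64.3 CPM in libraries 2, 5 and 8. Its lowest, median and highest levels in the others were 276, 314 and 395 CPM. Ddit3, the stress transcription factor CHOP, stood at 61.4, 53.2 and 58.1 CPM in the set and at 178, 212 and 292 CPM in the others. Ddit3 overlaps Mars1, a tRNA synthetase gene on the other strand that also lay apart on the low side, so the 2 genes' counts are uncertain where strand was not used. Both genes were low in all 3 set libraries. Chac1, which degrades glutathione, and Atf3, a stress transcription factor, were chosen after their values were seen and had mean differences of -2.03 and -2.09. The mRNA of Atf4 itself stood at 219, 227 and 257 CPM in the set and 387 to 502 CPM in the rest, a smaller difference of -0.89.

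In 8 of the 40 RefSeq windows of ATF4 list genes (20.0%, from 33 of the 38 genes), the 250 bases before the start held TGATGNAA or its reverse complement, the core of the C/EBP-ATF response element, against 3.45% of all windows and 1.91% of those of measured genes. The tRNA synthetase genes had it in 3 of 13 windows (23.1%). The stretches below were picked from genes with strong differences whose match lies outside annotated exons, with the match in capitals. They are those of Slc7a11 (chr3:50443615-50443714, minus strand), Chac1 (chr2:119351003-119351102, plus strand) and Atf3 (chr1:191183390-191183489, minus strand). Slc7a11 holds the element on both strands.
Slc7a11: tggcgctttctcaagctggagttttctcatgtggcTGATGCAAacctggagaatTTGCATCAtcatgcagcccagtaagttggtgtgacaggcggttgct
Chac1: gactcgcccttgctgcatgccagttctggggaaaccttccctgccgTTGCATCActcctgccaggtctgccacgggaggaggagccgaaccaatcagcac
Atf3: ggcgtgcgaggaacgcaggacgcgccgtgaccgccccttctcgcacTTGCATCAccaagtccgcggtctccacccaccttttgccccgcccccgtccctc

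The cytosolic tRNA synthetases, which charge tRNAs with amino acids, were low as a group. All 20 had negative mean differences, 15 lay apart on the low side, 9 were 2-fold lower and the median was -0.95. Sars, the seryl-tRNA synthetase, stood at 261, 256 and 282 CPM in the set and at 675, 714 and 832 CPM (lowest, median, highest) in the others, without overlap. Wars, the tryptophanyl-tRNA synthetase, had a mean difference of -1.58, but overlaps Wdr25 on the other strand. The endoplasmic reticulum chaperones, which the other arms of the unfolded protein response raise, did not share the direction of the ATF4 list. Of 21 members 11 lay apart on the high side and 2, Herpud1 and Sel1l, on the low side, with a median of 0.30. Sdf2l1, a chaperone cofactor, stood at 50.02, 57.0 and 66.8 CPM against 17.5, 26.8 and 27.7 CPM, and Herpud1, a degradation factor, had a difference of -0.84. Of 24 genes of the NRF2 and haem-iron response, 9 lay apart on the low side and 2 on the high side. Among the 9 was Slc7a11, which is also on the ATF4 list. Hmox1, haem oxygenase, stood at 213, 185 and 169 CPM in libraries 2, 5 and 8 and at 374, 427 and 572 CPM in the others.

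All 32 ribosome biogenesis genes and all 44 cytosolic ribosomal protein genes had negative mean differences. Of the biogenesis genes 27 lay apart on the low side, beside 18.3% of all genes, and the median was -0.63. Nop14, a factor of small-subunit assembly, stood at 82.8, 89.5 and 97.6 CPM in the set and at 154, 183 and 227 CPM (lowest, median, highest) in the others. It was the only member to pass the 2-fold limit. The ribosomal protein genes differed by less, with a median of -0.39, and 17 lay apart. That count was 37 without library 8 and 34 without library 9, where the rule of lying apart is easier to meet. Reads of ribosomal protein genes can be shared with pseudogene copies, so single members are uncertain. Rpl23 stood at 636, 665 and 709 CPM against 926, 971 and 1153 CPM. Myc, the transcription factor named above for ribosome production, stood at 63.1, 73.8 and 87.9 CPM in libraries 2, 5 and 8 and at 134, 172 and 205 CPM in the others, so that genes of division and Myc differed in opposite directions in the same libraries.

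**Figure D3:**
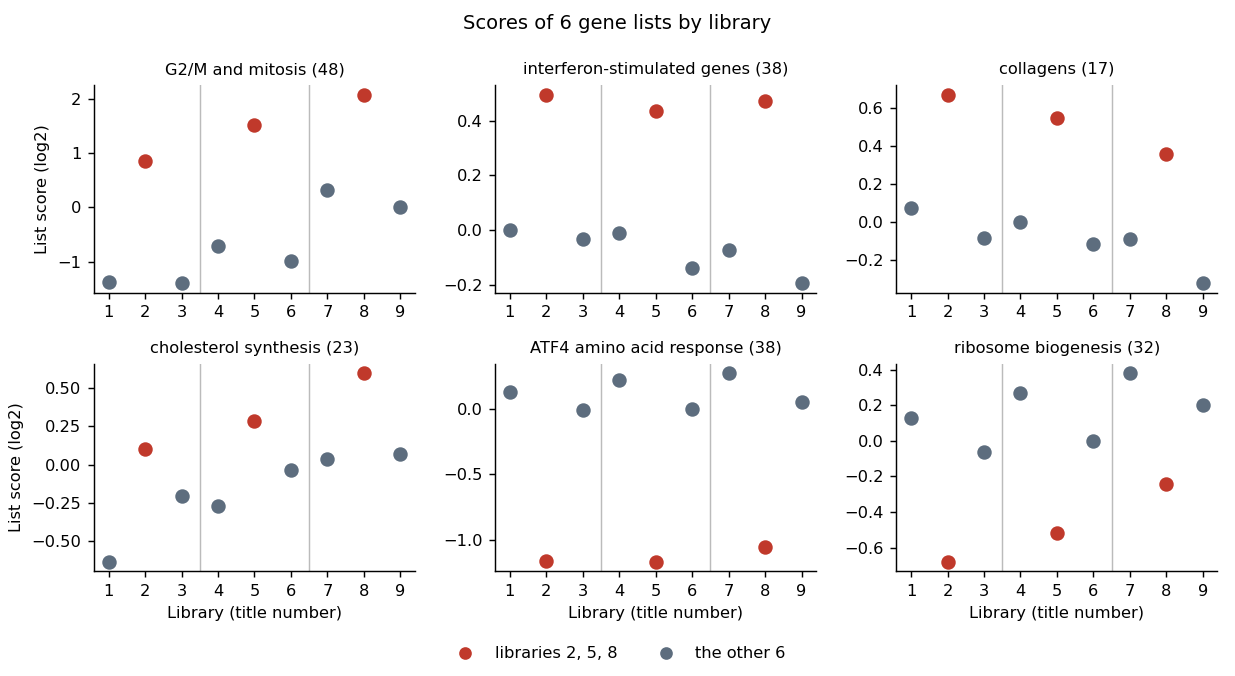
List scores by title number for 6 lists (measured members in brackets), each the members' median log2 CPM after centring every gene on its median library, with red points for libraries 2, 5 and 8. The ATF4 scores of the set lie between -1.17 and -1.05 in all blocks, while the mitotic scores of libraries 2, 5 and 8 are 0.85, 1.51 and 2.07 and the other libraries of block 3 are higher than those of block 1.

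Other genes with the lowest differences belong to no single list. Tenm4, a teneurin cell-surface protein, had the lowest, with 18.4, 15.3 and 21.6 CPM in libraries 2, 5 and 8 and 109.5, 136 and 193 CPM (lowest, median, highest) in the others. Rragd, a GTPase that signals nutrients at the lysosome, stood at 4.98, 3.49 and 2.15 CPM against 17.1, 25.3 and 28.1 CPM. Both were low in every set library. Areg, the EGF receptor ligand amphiregulin, stood at 6.59, 10.4 and 16.4 CPM against 27.4, 58.9 and 85.8 CPM, while its receptor Egfr was higher, at 204, 204 and 199 CPM against 60.3, 88.3 and 119.7 CPM. The remaining genes of the 15 lowest were Lonrf3, Angptl6, Extl1, Ptpru, Adm2, Lratd2, Cyb5r1, Eps8 and Prkg2, with mean differences between -2.86 and -2.13. Angptl6 overlaps Shfl, and Lratd2 overlaps an unnamed transcript, on the other strand.

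Part of the matrix genes were higher in the set, and several of these stood highest in library 2 and lowest in library 8 within it. Of 17 measured collagens 10 lay apart on the high side and 1, Col5a3, on the low side, with a median of 0.75. Of 23 other matrix proteins and crosslinkers 9 lay apart on the high side and none on the low side, with a median of 0.68, while the other 14 overlapped. Without library 8 the count was 15. The summed level of this list, which abundant genes such as Fn1 dominate, overlapped, at 21717 to 23457 CPM in the set and 18378 to 23286 CPM in the others. The highest difference of all named genes was that of Aspn (chr13:49544443-49567565, plus strand), which encodes asporin, a small leucine-rich proteoglycan that binds collagen. It stood at 44.1, 13.9 and 4.14 CPM in libraries 2, 5 and 8 and at 0.107, 0.404 and 3.03 CPM (lowest, median, highest) in the others, so library 8 lay just above library 1. The lowest levels rest on 9, 4 and 2 counts in libraries 3, 6 and 9, whose exact 95% Poisson intervals of 4.12 to 17.1, 1.09 to 10.2 and 0.242 to 7.22 counts cover counting error only. Its differences of 5.48, 4.58 and 3.70 are shrunk by the prior count. Omd, its neighbour on chromosome 13 and also a proteoglycan of this family, stood at 70.1, 35.1 and 16.9 CPM against 1.17, 2.86 and 9.22 CPM.

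Col3a1, the fibrillar collagen type III chain, stood at 3008, 1837 and 1085 CPM in libraries 2, 5 and 8 and at 385, 517 and 711 CPM (lowest, median, highest) in the others. Col1a1, the type I chain, differed less, by 0.83, at 3549, 4040.2 and 4316 CPM against 1086 to 3056 CPM. P4ha3, a collagen prolyl hydroxylase, had differences of 3.15, 3.29 and 3.27, with 16.4, 21.5 and 22.7 CPM against 1.58, 2.00 and 2.67 CPM. Unlike Aspn and Col3a1, it was about level across the blocks. Matrix genes did not all share this. Fn1, fibronectin, overlapped between the groups with a difference of -0.27, and so did Postn, periostin, at 0.06. Both were chosen after their values were seen. Itga11, a collagen-binding integrin chain, stood at 118, 96.6 and 56.0 CPM against 4.80, 14.8 and 31.2 CPM. Of 14 integrins 5 lay apart on the high side and none on the low side, beside 21.3% and 18.3% of all genes. The protease inhibitor Timp3 was lower, with 210.0, 190.2 and 139.8 CPM against 365, 447 and 597 CPM. The protease gene Mmp3 overlapped between the groups and varied mainly with the block, with 170.2 to 186 CPM in block 1 and 17.6 to 40.6 CPM in block 3.

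Fibroblast markers were higher in the same libraries. The summed level of the 10 listed markers was 6293 to 8009 CPM in the set and 2679 to 4218 CPM in the others, and most of it in each library was Col1a1 and Col3a1, which are also on the collagen list. Of the 5 measured markers 4 lay apart on the high side (Col1a1, Col3a1, Pdgfrb and Fap), while Dcn, Lum, Dpt, Pdpn and Thy1 had means under 1 CPM. The mesenchymal list, which shares Pdgfra, Pdgfrb and Fap with it, had 8 of 12 members apart on the high side, among them Vim at 5790.3, 5891 and 5866 CPM against 3553, 3901 and 4659 CPM. The part of any other cell type in the matrix differences was not tested. Markers of NK and T cells summed to at most 7.92 CPM and those of leukocytes and macrophages to at most 16.9 CPM in any library. Of the latter, Cd68 and S100a8 lay apart on the low side.

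Contractile and adhesion-linked genes were partly higher. Of 19 actin cytoskeleton and SRF genes 10 lay apart on the high side and none on the low side, with a median of 0.42, and of 23 YAP/TEAD targets 9 lay apart on the high side and 3 (Axl, Foxf2 and Gpatch4) on the low side, with a median of 0.19. The count of 3 on the low side is not above the 18.3% of all genes. The block medians of the YAP/TEAD list were 0.11, 0.22 and 0.40. Acta2, smooth muscle actin, stood at 172, 250.3 and 250.1 CPM in libraries 2, 5 and 8 and at 36.6, 53.4 and 63.4 CPM (lowest, median, highest) in the others. Ccn2, a secreted target of YAP and TGF-beta, stood at 178, 139 and 78.7 CPM against 9.39, 30.9 and 70.3 CPM. It was highest in block 1 and lowest in block 3 inside and outside the set, and the set library was the highest in each block. Thbs1, thrombospondin 1, stayed near one level in the set, at 1487, 1629 and 1559.7 CPM, while the others stood at 612 and 654 CPM in block 1 and at 187 and 229 CPM in block 3. Its differences were 1.23, 2.18 and 2.92.

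Of the 18 genes of the TGF-beta and BMP list, 6 lay apart on the high side and 3 (Skil, Inhba and Smurf1) on the low side, beside 21.3% and 18.3% of all genes. Without library 8, where the rule is easier to meet, the counts were 10 and 5. Id3, a BMP-induced inhibitor of differentiation factors, stood at 78.2, 70.3 and 53.7 CPM in libraries 2, 5 and 8 and at 10.4, 15.5 and 21.3 CPM (lowest, median, highest) in the others. Its 3 differences of 2.05, 2.09 and 2.12 were nearly equal. Id1, its close relative and a target of the same pathway, differed in the other direction at -0.76, and its groups overlapped. Smad6, a feedback inhibitor of BMP signalling, had a difference of 1.40 without overlap. Il33, an alarmin cytokine, stood at 19.6, 11.8 and 12.8 CPM against 0.931, 1.49 and 2.83 CPM, and Oxtr, the oxytocin receptor, and Tmem119, a membrane protein of bone and microglia, had differences of 2.96 and 2.81. Of 22 chemokines and cytokines 5 lay apart on the high side and 3 on the low side, which is close to the 21.3% and not above the 18.3% of all genes.

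**Figure D4:**
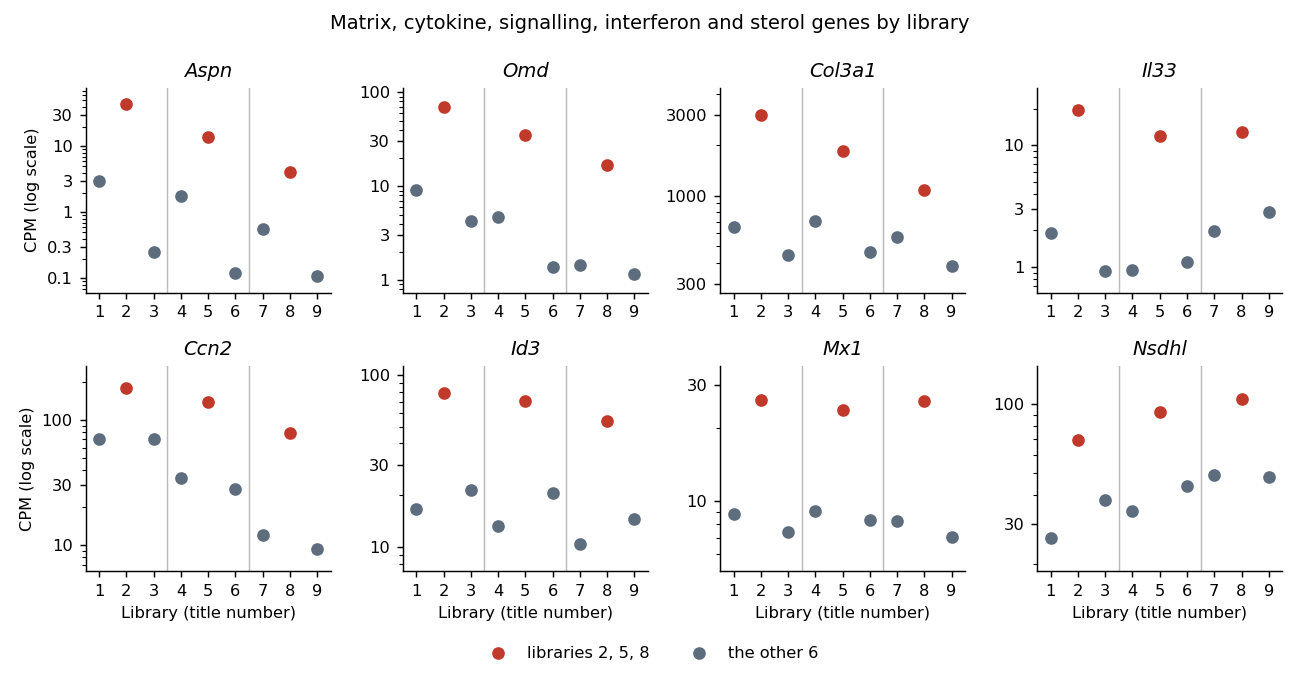
TMM-scaled CPM (log axis) by title number for 8 genes that are higher in libraries 2, 5 and 8 (red) than in the other 6 (grey points), with grey lines between blocks. Among the red libraries Aspn, Omd, Col3a1 and Ccn2 are highest in block 1 and lowest in block 3, while Mx1 stays between 23.8 and 26.0 CPM.

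Interferon-stimulated genes were higher by a moderate and even amount. Of 38 members 29 lay apart on the high side, beside 21.3% of all genes, and none on the low side, but only 6 were 2-fold higher. The median was 0.57, with 0.53, 0.54 and 0.62 in the 3 blocks. Mx1 (chr16:97447035-97462907, minus strand), an antiviral GTPase, stood at 26.0, 23.8 and 25.9 CPM in libraries 2, 5 and 8 and at 7.10, 8.26 and 9.07 CPM (lowest, median, highest) in the others. The 3 set libraries lay close to each other and far from the rest. Gbp2, a GTPase induced by interferon gamma, had a difference of 1.41. The 9 members that did not lie apart were Isg15, Ifi44, Ifi27, Oasl1, Rsad2, Usp18, Bst2, Irf9 and Adar.

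Of 33 RefSeq windows of interferon-stimulated genes, 14 (42.4%) held GAAANNGAA or its reverse complement, a core of the interferon-stimulated response element, in the 250 bases before the start, against 7.13% of all windows and 6.05% of those of measured genes. The stretch of Ifit3 (chr19:34583381-34583480, plus strand), an antiviral gene chosen after its values were seen with a mean difference of 1.10, holds the core more than once, shown in capitals.
Ifit3: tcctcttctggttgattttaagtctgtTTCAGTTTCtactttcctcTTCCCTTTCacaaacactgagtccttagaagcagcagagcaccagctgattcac

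Antigen presentation and the proteins through which NK cells engage a target cell bear on the series' stated subject, NK cells and dormant tumour cells. Of 17 genes of MHC class I presentation 9 lay apart on the high side and none on the low side, with a median of 0.47. Psmb9, an immunoproteasome subunit, had a difference of 1.46 but overlaps Tap1 on the other strand. The class I heavy chains H2-K1 and H2-D1 did not lie apart. Of 8 measured genes on the list of NK cell ligands, which also holds the death receptors Fas and Tnfrsf10b, Ulbp1, H60b and Fas lay apart on the high side and Pvr and Clec2d on the low side. Ulbp1, which the NK cell receptor NKG2D recognises, stood at 14.4, 16.5 and 17.7 CPM in libraries 2, 5 and 8 and at 2.83, 4.23 and 5.10 CPM (lowest, median, highest) in the others. Pvr, a ligand of DNAM-1 and TIGIT, stood at 21.2, 24.7 and 31.1 CPM against 52.8, 59.2 and 78.5 CPM. The 2 ligands thus differed in opposite directions, each without overlap. Of the Raet1 genes, which are near-identical to each other, 3 were not analysed here.

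Of 23 cholesterol synthesis genes 12 lay apart on the high side and none on the low side, with a median of 0.50 and 22 positive differences. Nsdhl, an enzyme of the late pathway, stood at 69.6, 91.9 and 105 CPM in libraries 2, 5 and 8 and at 26.0, 40.9 and 48.9 CPM (lowest, median, highest) in the others. Hmgcs1, which makes the precursor of mevalonate and was chosen after its values were seen, stood at 266, 330.3 and 377 CPM against 118 to 190.4 CPM. The fatty acid synthesis list had 2 of 14 members apart, Srebf1 and Acss2, both overlapped by genes on the other strand, with a median of 0.03. Of the 23 cholesterol genes, 22 had their lowest level of all libraries in library 1, and 19 had their highest in library 8.

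Several lists had medians near that of all genes, namely glycolysis (-0.08), proteasome subunits (-0.05), nuclear-encoded oxidative phosphorylation (-0.08), heat shock genes (-0.05) and stem cell linked genes (-0.01). Members could still lie apart. Of the 15 heat shock genes 6 did so on the high side (Hspa1b, Hspb1, Hspb8, Dnajb1, Bag3 and Cryab) and Hspd1 on the low side, and the small heat shock proteins Hspb1 and Cryab had differences of 0.97 and 0.96, Cryab being overlapped by Hspb2 on the other strand. All 13 mitochondrially encoded genes had negative mean differences, with medians of -0.09, -0.20 and -0.48 in blocks 1, 2 and 3, and 2 of them, the complex I genes mt-Nd1 and mt-Nd2, lay apart on the low side. Without library 3 there were 7. Within the hypoxia list, Ero1l, an oxidase of protein folding, and Ndrg1 had differences of -1.87 and -1.48 although the median was -0.16, and 7 of 19 members lay apart on the low side and 2 on the high side. Among the 7 was Ddit4, which is also on the ATF4 list. Klf4, a growth-restraining transcription factor on both the stem cell and immediate early lists, stood at 9.71, 10.4 and 14.6 CPM in libraries 2, 5 and 8 and at 27.7, 33.3 and 51.3 CPM (lowest, median, highest) in the others. Sox2, a stem cell factor, was slightly higher, at 29.7, 26.6 and 27.0 CPM against 17.1, 20.2 and 25.6 CPM. Of 26 immediate early genes 4 lay apart on the high side and 6 on the low side, beside 21.3% and 18.3% of all genes. Fos, Jun and Egr1, the best known of them, did not lie apart. Of 27 lysosome and autophagy genes 10 lay apart on the low side and 2 on the high side, and 17 on the low side without library 2. The median of this list was -0.34, and 23 of its members had negative differences. Krt8, a keratin overlapped by Gm36026 on the other strand, was the only one of 7 measured epithelial genes apart on the high side, and Epcam had a mean under 1 CPM. All 7 had positive mean differences, with a median of 0.49, so the epithelial list differed in the same direction as the mesenchymal list. The summed level of the 19 listed epithelial genes was 469 to 834 CPM in the set and 247 to 401 CPM in the others. Krt8 alone stood at 310 to 677 CPM and 146 to 288 CPM.

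**Figure D5:**
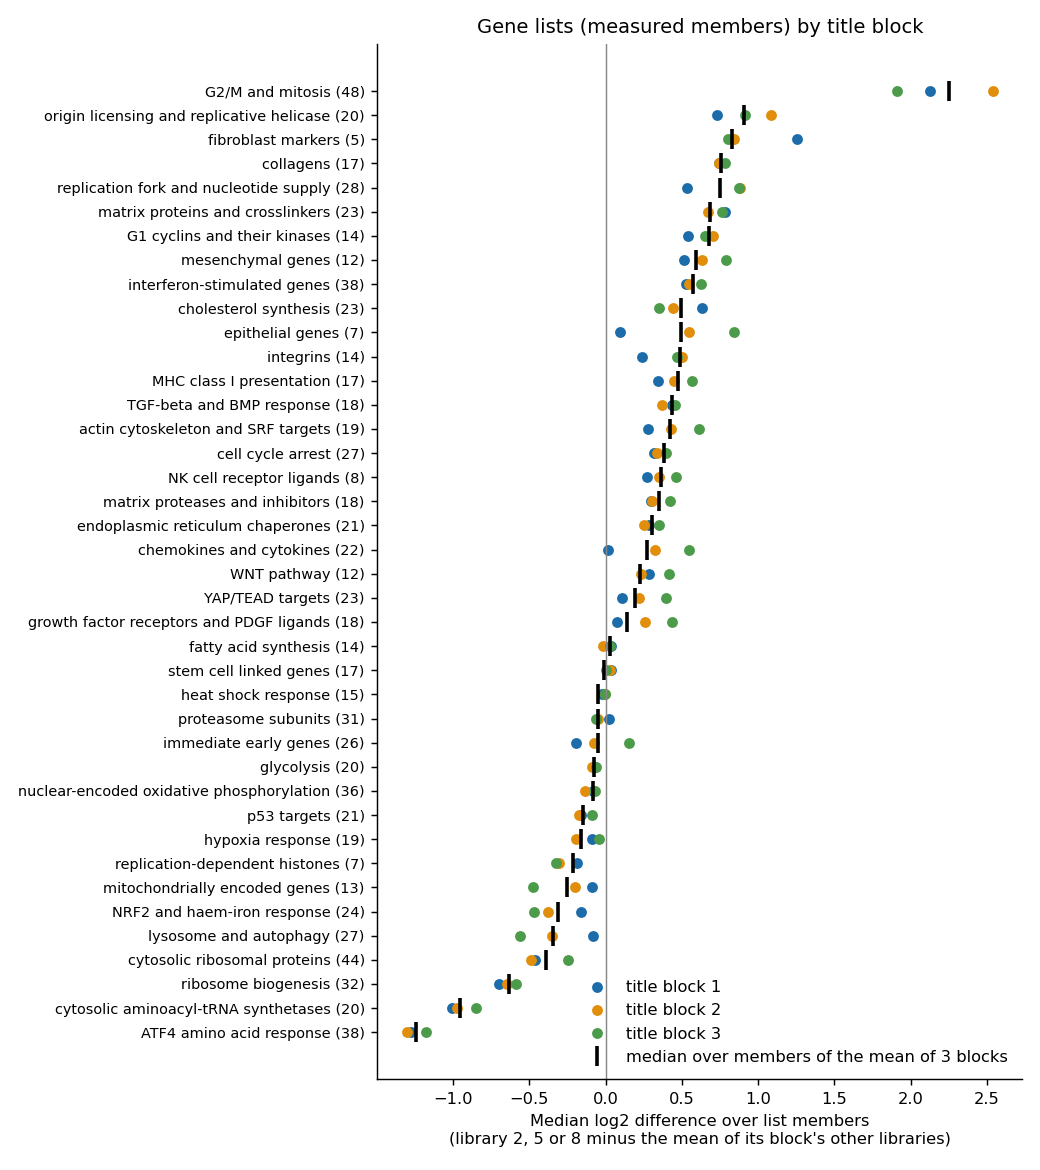
Median log2 difference over the measured members (number in brackets) of each list with at least 5, in blocks 1, 2 and 3 (coloured points) and for the mean of the blocks (black mark). The mitotic list, at 2.25, and the ATF4 list, at -1.24, lie at the ends. Of the 40 lists, some have block points close together, such as the interferon-stimulated genes at 0.53, 0.54 and 0.62. Others have them spread, such as the epithelial genes at 0.09, 0.55 and 0.84.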

How the data were processed

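The authors deposited 1 table of RSEM expected counts per gene, already whole numbers and not normalised, for 9 libraries. Per the submitters' processing notes, the tools were STAR 2.7.8a, RSEM 1.3.3, cutadapt 2.3, FastQC 0.11.8 and MultiQC 2.7, with build GRCm38. No source used here states the annotation release or the strand setting. RSEM splits reads that fit several genes, so near-identical genes are less certain.

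All columns matched 1 title each (0 unmapped). The 5 reporter rows, with 0 counts, were left out. Counts were scaled with TMM (edgeR 4.0.16, R 4.3.3), and log2 CPM used a prior count of 2, which understates the differences of low genes. Genes with a mean of at least 1 CPM were kept. Because the set holds 1 library per block, the mean within-block difference equals the block-adjusted one. The libraries have no assigned group and the set was selected on these counts, so no test was made and no p-value is given.

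The set and the 43 gene lists were chosen with earlier results of these data known. Genes named are the 15 highest and 15 lowest mean differences among genes lying apart with at least 5 CPM (without predicted genes and pseudogenes), the 2 widest members apart of each list, and a fixed set. Of the list symbols, 18 were matched through synonyms and 3 not at all. Gene positions are from GENCODE release M21 (GRCm38) and promoter sequences from RefSeq. The calculation was tested on simulated counts. Alternatives were RLE and total-count scaling, a prior count of 0.5, other count minimums, other rules of lying apart, a negative binomial fit of set and block, and leaving out each library.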

Additional observations from a re-analysis of the deposited data

Results flagged for a closer look

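In 44 measures (list scores and library measures) examined for a library far from the other 8, 1 stood out. The score of the stem cell linked genes in library 7, which is outside the set, was 0.0787 on the log2 scale, and the nearest of the others was 0.0266. The gap was 0.662 of the whole range, above Dixon's 95% critical value for 9 samples. Chance sets off about 1 in 20 such checks, and the score itself is close to 0.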

How the results depend on the processing

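Counts of genes 2-fold higher and lower were 554 and 223 with RLE scaling and 644 and 188 with library totals alone. With a mean of at least 5 CPM, 334 genes were higher in place of 582, and with the minimum of 15 counts in total 811 were higher and 280 lower. When each of the 3 within-block differences had to reach 1, 402 were higher in place of 582 and 129 were lower in place of 208. Leaving out each library in turn gave 569 to 697 higher and 199 to 234 lower genes. The share of variation along the set was 34.2% when all genes with at least 15 counts in total were used, and it ran from 39.03% without library 5 to 55.4% without library 9. The medians of 6 lists changed sign: the WNT pathway to -0.0265 at 5 CPM or more, fatty acid synthesis to -0.0346, -0.0412 and -0.0058 without libraries 1, 4 and 7 (range with each library left out -0.0412 to 0.104), glycolysis to 0.00486 without library 7 (-0.128 to 0.00486) and the proteasome to 0.00265 without library 8 (-0.0704 to 0.00265). That of the immediate early genes was 0.0229 without library 2, and that of the stem cell linked genes ranged from -0.0317 to 0.0541 over all alternatives. The cause was not tested. No gene named by the rule changed sign under the 14 alternatives that give a value for it, and the genes chosen after their values were seen were not run. No paired analysis was possible because the labels give no groups whose replicate numbers could be paired. The blocks of titles are no recorded pairing, and a negative binomial fit of set and block gave 575 higher and 209 lower genes. Genes near the floor of 3 counts, such as Aspn, are limited by depth, and library 9 had the fewest counts.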
